A study of Mus musculus with 12 samples.

Results

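Mouse chromosome 8 held 10786 of the 190469 affinity peaks listed for ZBTB43. They were chosen by their position, as every peak of the SssI list and of the TKO list placed on chromosome 8 of mm10. Of these, 9798 were among the 175775 peaks found on DNA methylated with M.SssI, and 988 were among the 14694 peaks found on unmethylated DNA of triple-knockout (TKO) embryonic stem (ES) cells. Chromosome 8 was picked because its SssI peaks had been seen to overlap TKO peaks more often than those of other autosomes in these same lists. All values of that overlap are therefore a description with no test.

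ZBTB43 is a zinc finger protein with a BTB domain, a fold through which proteins of this family pair. It has affinity to purine-pyrimidine repeats (PPRs), stretches in which purines and pyrimidines alternate, such as (CA)n and (CG)n. Such repeats can turn from the right-handed B form of DNA into the left-handed Z form, and they often lie in introns and between genes. Methylation of the CpGs within a repeat changes how easily it takes the Z form. In affinity sequencing, purified protein on beads captures fragments of naked genomic DNA, so chromatin and cell state play no part and the amount of a fragment captured can depend on the sequence, on its CpG methylation and on how many copies of it are in the DNA.

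The experiment used full-length ZBTB43 fused to maltose-binding protein (MBP), with MBP alone as the background. The methylated DNA came from lung of wild-type male C57BL/6N mice aged 2 months, and M.SssI had methylated its CpGs after fragmentation. The unmethylated DNA came from a single clone of male ES cells, Dnmt1-/-Dnmt3a-/-Dnmt3b-/-, whose age is given as 3.5 dpc and for which the strain label repeats the genotype. There were 2 libraries for each protein on each DNA, 8 in all, and the duplicates were pooled before peaks were called against MBP, so each DNA is represented by 1 list. Both DNAs were male but differed in source as well as in CpG methylation. The number of copies of chromosome 8 in the ES cells was not measured here, and its part in the values below was not tested.

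The strongest TKO peak of chromosome 8 shows the kind of sequence captured without any long tract. It lay between genes at chr8:124348366-124349046 with a TKO score of 3772, rank 7 of the whole TKO list, and an SssI score of 1905. The score is 10 times the −log10 q-value of a peak, so it orders the peaks of a list but cannot be compared between lists. No alternating run in this peak reached 12 bp. The middle 300 bases of the peak on the forward strand, chr8:124348557-124348856, are printed with every alternating run of 6 bp or more in capitals.
Strongest TKO peak: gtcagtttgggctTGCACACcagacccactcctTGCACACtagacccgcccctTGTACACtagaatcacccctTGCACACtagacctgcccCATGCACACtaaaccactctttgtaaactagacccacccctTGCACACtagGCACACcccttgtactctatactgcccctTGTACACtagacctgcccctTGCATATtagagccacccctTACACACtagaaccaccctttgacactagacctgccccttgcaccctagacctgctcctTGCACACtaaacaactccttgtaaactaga

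These 300 bases hold 11 such runs, the longest of 9 bp. The second TKO peak, with a score of 3583, lay at chr8:86056917-86057552 in intron 30 of Phkb, which encodes the beta subunit of phosphorylase kinase. Its longest tract was 13 bp, and its middle 300 bases, chr8:86057085-86057384, hold 24 runs.
Phkb intron 30: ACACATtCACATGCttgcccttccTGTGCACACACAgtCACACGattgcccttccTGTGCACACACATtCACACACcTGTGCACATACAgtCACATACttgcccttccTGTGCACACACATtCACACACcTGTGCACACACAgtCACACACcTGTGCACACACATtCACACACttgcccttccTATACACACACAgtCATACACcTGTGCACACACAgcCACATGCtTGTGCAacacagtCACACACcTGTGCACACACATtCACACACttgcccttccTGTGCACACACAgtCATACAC

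Alternating runs of 6 bp or more covered 15.4% of the first peak and 50.2% of the second. The median over the 988 TKO peaks of chromosome 8 was 64.6%, and over its 9798 SssI peaks it was 39.3%. Most peaks of either list had a longer tract, as the strongest SssI peaks show. Their longest alternating tracts are printed on the forward strand with each CpG in capitals, because a CpG in the tract is a base that M.SssI could methylate.
Rnf150 intron 1, chr8:82932499-82932529: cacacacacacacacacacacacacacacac
Rab4a intron 1, chr8:123811134-123811293: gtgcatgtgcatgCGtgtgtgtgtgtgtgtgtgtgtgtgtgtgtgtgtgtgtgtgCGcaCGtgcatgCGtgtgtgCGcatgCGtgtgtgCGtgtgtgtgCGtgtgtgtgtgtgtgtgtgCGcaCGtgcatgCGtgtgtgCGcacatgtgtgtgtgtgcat

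Chromosome 8 was dense in peaks of both lists. It had 78.0 SssI peaks per Mb of known sequence, rank 2 of 19 autosomes, and 7.87 TKO peaks per Mb, rank 1. Its sequence was dense in alternating tracts too, with 195 tracts of 24 bp or more per Mb against a median of 176 and a range of 159 to 197 on the other 18 autosomes. Per 100 such tracts there were 39.9 SssI peaks, rank 8, and 4.03 TKO peaks, rank 2 behind chromosome 19. Counted by tract, the SssI peaks stood near the middle of the order and the TKO peaks near its top. The TKO ranks are not independent of how chromosome 8 was picked, since 979 of its 988 TKO peaks lay on an SssI peak. Those ranks are therefore a description with no test as well.

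The peaks of chromosome 8 looked much like those elsewhere. The median SssI peak was 199 bp wide, held 1 CpG and a longest tract of 46 bp, against 196 bp, 1 CpG and 46 bp on the other autosomes. The median TKO peak was 250 bp wide with 2 CpGs and a tract of 47 bp, against 252.5 bp, 2 CpGs and 46 bp. A tract of at least 24 bp was present in 91.5% of the SssI peaks and in 86.5% of the TKO peaks of chromosome 8. The median SssI score was 114, above the 108 of the other autosomes and above the range of 102 to 113 of their single medians. The median TKO score was 182, within the range of 170 to 241.5.

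Of the 9798 SssI peaks on chromosome 8, 971 overlapped a TKO peak by 1 bp or more, a share of 9.91% (Wilson 95% interval 9.33 to 10.5%). On the other 18 autosomes 13362 of 159486 did so, which is 8.38%. This share rises steeply with the SssI score, and chromosome 8 had more high-scoring SssI peaks, so the shares were then compared at equal score. All SssI peaks were ranked by score and divided into 10 classes of equal size, class 1 being the strongest, and each peak of chromosome 8 was given the share of its class on the other 18 autosomes. Summed over chromosome 8 this gives 893.14 shared peaks expected. The 971 observed were 1.09 times that number (exact Poisson 95% interval 1.02 to 1.16), against 1.18 for the shares without regard to score. Intervals cover counting error only, since there is no replicate. Of the 971 shared peaks, 790 were in class 1, where shares are high and a Poisson interval is wider than a binomial one. An interval that includes 1, or an overlap of intervals, therefore does not show that a difference is absent.

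Chromosome 8 came first among the 19 autosomes by this ratio, followed by chromosome 19 at 1.08 (0.976 to 1.19), chromosome 10 at 1.07 (0.999 to 1.14) and chromosome 18 at 1.05 (0.961 to 1.14). The ratio of the other 18 autosomes had a median of 0.987 and fell to 0.926 on chromosome 3. Its interval overlapped that of chromosome 8 for 16 of the 18, with chromosomes 1 and 3 below. No other autosome had an interval wholly above 1. These intervals, wider than binomial ones, do not resolve the order of the leading autosomes. The X chromosome had a ratio of 0.464 (0.388 to 0.551), with 131 shared of 6445 SssI peaks, although both DNAs were labelled male. The cause was not tested.

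**Figure D1:**
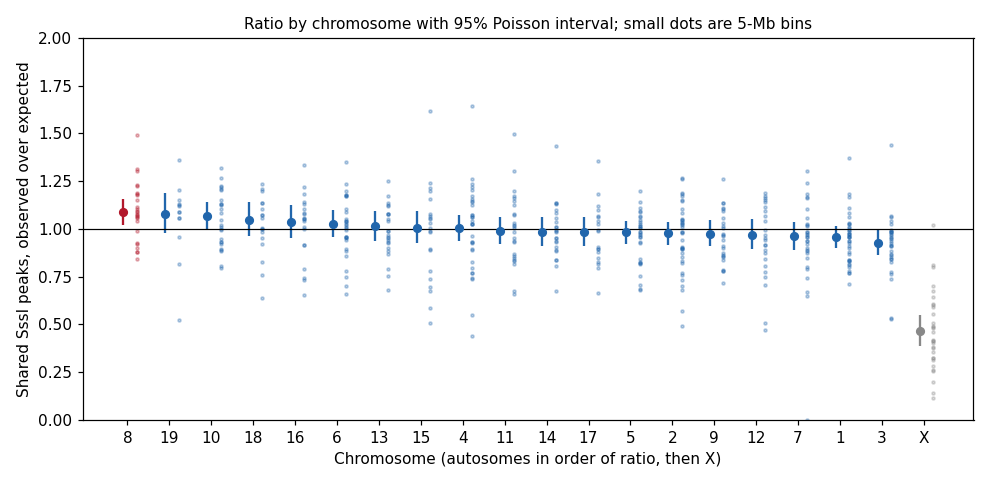
Ratio of observed to expected SssI peaks with a TKO peak at equal SssI score (vertical axis, no unit) for each autosome in order of ratio and for X; large points are chromosomes with 95% Poisson intervals and small dots their 5-Mb bins. Chromosome 8 is first at 1.09, chromosome 19 is next at 1.08, and X lies at 0.464.

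To see whether the excess was local, the same ratio was taken in 5-Mb bins, each SssI peak being placed by its midpoint. The 26 bins held between 148 and 682 SssI peaks and between 11 and 89 shared ones. The ratio was above 1 in 19 of the 26 bins, or 73.1%, whereas it was above 1 in 212 of 470 bins of the other autosomes, which is 45.1%. Chromosome 19, with 10 of 13 bins, had the only higher share among the autosomes at 76.9%. The median bin of chromosome 8 stood at 1.08, and that of the other autosomes at 0.984.

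The bins above 1 lay along the whole length. Counted from the centromeric start, 10 of the first 13 bins and 9 of the last 13 were above 1. Up to the middle of the chromosome, at 64.7 Mb, 392 peaks were shared, a ratio of 1.07 (0.966 to 1.18), and beyond it 579, a ratio of 1.10 (1.01 to 1.19). In 4 parts of equal length the ratios were 1.06, 1.08, 1.12 and 1.09 from start to end, and the interval of each included 1. Of the other 18 autosomes, 5 were above 1 on both sides of their middle. The longest run of neighbouring bins above 1 was 6 bins, from 40 to 70 Mb, a length that chromosomes 10 and 11 also reached and that chromosome 16 exceeded with 8.

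No single bin stood out from the rest of chromosome 8. The highest ratio was 1.49 (0.745 to 2.67) at 0 to 5 Mb, the bin with the fewest peaks, where 11 were shared and 7.37 expected. Next came 1.31 at 60 to 65 Mb, with 28 shared, and 1.305 at 75 to 80 Mb, with 38 shared. The lowest ratios were 0.840 at 15 to 20 Mb, 0.876 at 30 to 35 Mb and 0.880 at 95 to 100 Mb. The interval of every one of the 26 bins included 1. These intervals are wide, since of the 470 bins of the other autosomes 3 had one wholly below 1 and 0 wholly above it. The lowest bin of chromosome 8 was nonetheless higher than the lowest bin of any other autosome. The SD over its bins was 0.153, rank 7 from the lowest among the 19 autosomes. Leaving out each bin in turn moved the ratio of the chromosome only between 1.08 and 1.10. Without the first and last 10 Mb of every autosome it was 1.10 (1.02 to 1.18).

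**Figure D2:**
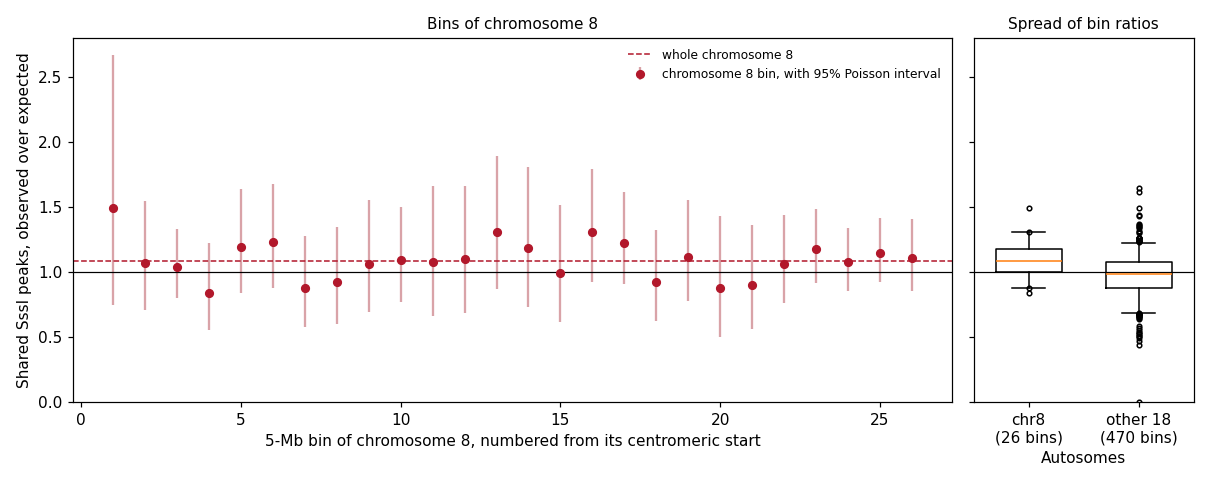
Left, ratio of observed to expected shared SssI peaks (no unit) in the 26 bins of 5 Mb along chromosome 8, numbered from its centromeric start, with 95% Poisson intervals; the dashed line is the whole chromosome. Right, box plots of the bin ratios (median, quartiles, whiskers at percentiles 5 and 95) of chromosome 8 and of the other 18 autosomes: 19 of 26 bins lie above 1 on chromosome 8, with no bin below 0.840.

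Peaks were most numerous toward the far end of the chromosome. The most SssI peaks, 682, lay at 115 to 120 Mb, where 79 were shared and the ratio was 1.07. The most TKO peaks, 91, lay at 120 to 125 Mb, where 18.6% of the 479 SssI peaks were shared, the highest share of any bin, and 21.3% of them were in class 1. At equal score the bin's ratio was 1.15. The lowest share, 5.19% of 308, was at 95 to 100 Mb.

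**Figure D3:**
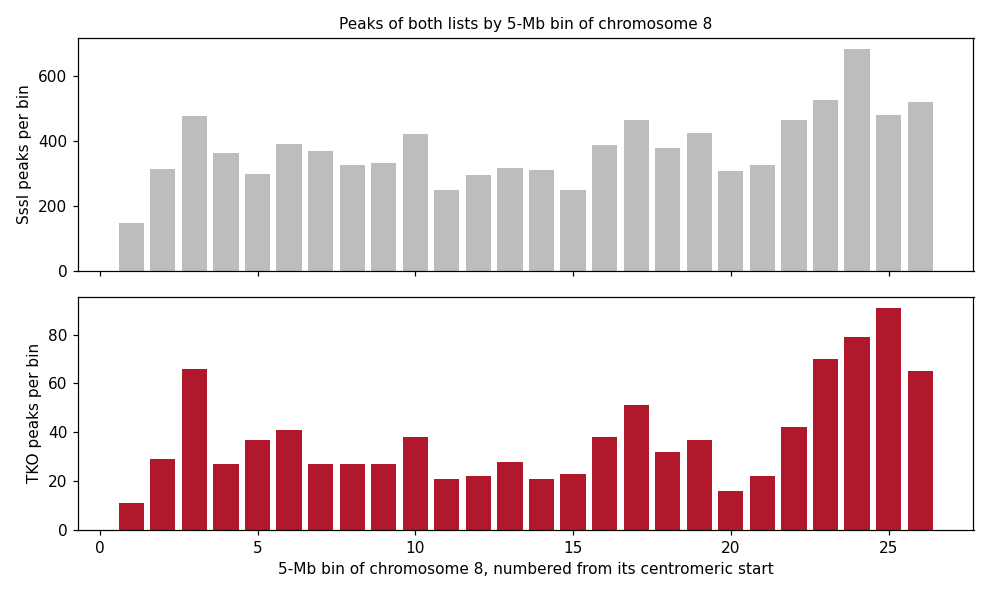
Number of SssI peaks (upper) and TKO peaks (lower) in each 5-Mb bin of chromosome 8, numbered from its centromeric start. SssI peaks range from 148 in the first bin to 682 in bin 24, and TKO peaks from 11 in the first bin to 91 in bin 25.

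By score, the ratio was higher among peaks below the strongest class, where lower shares leave a ratio more room to rise. In class 1, with SssI scores of 677 and above, 790 of 1091 peaks of chromosome 8 were shared, or 72.4% (69.7 to 74.98%), against 68.9% on the other autosomes, and 3 autosomes had a higher share. In class 2 the share was 12.1% (10.3 to 14.3%) against 10.2%. In class 3 it was 3.27% (2.34 to 4.56%) against 1.85%, above each of the other 18 autosomes, whose highest was 2.96%. Below that, no class of chromosome 8 had more than 6 shared peaks. Within class 1 alone 790 were shared and 751.57 expected, a ratio of 1.05 (0.979 to 1.13). Within the other 9 classes together, where 181 peaks were shared and 141.57 expected, it was 1.28 (1.10 to 1.48), so that the intervals overlapped. The Poisson interval is wider than a binomial one at shares as high as those of class 1, where the Wilson interval of chromosome 8 lay above the share of the other autosomes and the Poisson interval of the ratio included 1. The strongest hundredth left little room, since 101 of 105 peaks were shared.

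**Figure D4:**
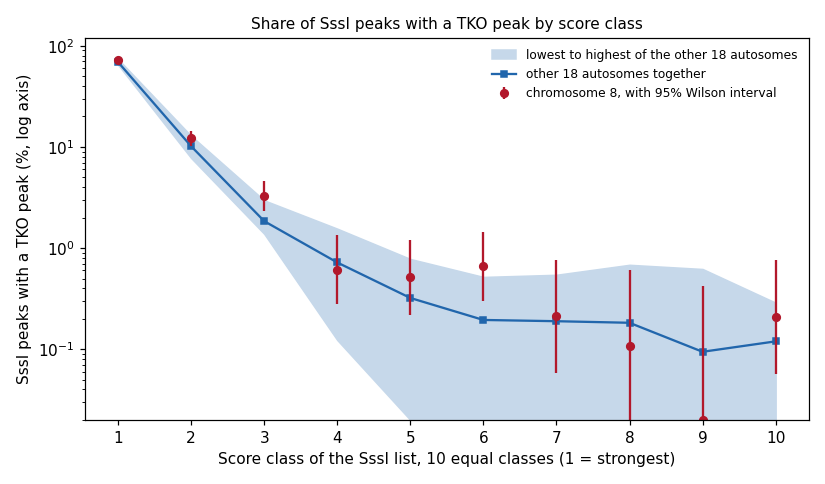
Share of SssI peaks with a TKO peak (percent, log axis) by score class of the SssI list, 1 being the strongest, for chromosome 8 with 95% Wilson intervals, the other 18 autosomes together (line), and their lowest to highest single value (band). Chromosome 8 lies above the line in classes 1 to 3, at 72.4, 12.1 and 3.27%. In classes 4 to 10, with at most 6 shared peaks each, it lies above the line in some and below it in others. Its share of 0 in class 9 is drawn at the lower edge.

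The ratio of chromosome 8 was above that of the other autosomes in peaks with and without CpGs. Among the 3048 SssI peaks of chromosome 8 with no CpG, for which methylation can make no difference within the peak, 106 were shared, 1.03 (0.845 to 1.25) times the number expected at equal score, while the same class on the other autosomes had 0.851 and only 1 of them was higher. With 1 to 2 CpGs the ratio was 1.02 against 0.962, and with 3 to 5 CpGs it was 1.10 against 1.05. With 6 or more CpGs 267 of 798 were shared, a ratio of 1.18 (1.04 to 1.33) against 1.06. In each of these 4 groups of peaks the interval of chromosome 8 included the value of the other autosomes together, and between 1 and 5 single autosomes were above it. When the expected number was taken within score classes and CpG numbers together, the ratio was again 1.09 (1.02 to 1.16).

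The ratio was above 1 in each kind of place on the annotation. Between genes 393 of 4314 SssI peaks were shared, a ratio of 1.11 (0.998 to 1.22) that no other autosome exceeded, against 0.984 on the others together. In introns 488 of 4571 were shared, a ratio of 1.06 (0.971 to 1.16) against 1.01, and 4 other autosomes were higher. With the midpoint in the 3000 bp upstream of a transcript start 74 of 780 were shared. Their ratio was 1.15 (0.905 to 1.45) against 1.03, and 1 other autosome was higher. In exons the ratio was 1.12 (0.642 to 1.83) against 0.890, from 16 shared peaks of 133, and 2 other autosomes were higher. The interval of each of these 4 places included 1. Introns held 50.2% (47.1 to 53.3%) of the TKO peaks of chromosome 8, against 45.3% on the other autosomes and up to 49.7% on a single one.

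Where a TKO peak was present, its score was on median little different from that elsewhere with 10 score classes. Sites that did not reach the TKO list have no score and are not in this median. The TKO scores of the 971 shared peaks were set against the median of their score class on the other autosomes. The median log2 difference was 0.04, with a 95% order-statistic interval of -0.07 to 0.14. It was above 0 in 14 of the 26 bins, namely in 10 of the 19 whose ratio was above 1 and in 4 of the other 7. In the strongest hundredth of the SssI list, where nearly every peak was shared, the median difference of the 101 shared peaks was 0.21 (0.05 to 0.53).

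Almost every TKO peak of chromosome 8 had an SssI peak, 979 of 988 or 99.1% (98.3 to 99.5%), against 99.5% on the other autosomes. Overlaps were rarely marginal, since the smallest was 122 bp and the median 250 bp, though 180 of the 971 shared SssI peaks had under 50% of their bases covered. Among the 8827 SssI peaks that were not shared, 1 lay within 100 bp of a TKO peak, at a gap of 98 bp. The strongest of the 9 TKO peaks with no SssI peak was at chr8:89172249-89172586 between genes, with a score of 1267. Its tract holds 3 CpGs.
TKO peak without an SssI peak, chr8:89172410-89172446: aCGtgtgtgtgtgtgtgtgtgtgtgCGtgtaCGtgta

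The highest TKO peaks within genes included the Phkb peak above. Adat1, which encodes an adenosine deaminase acting on transfer RNA, had a TKO score of 3395 and an SssI score of 1699 in intron 5 (chr8:111985602-111986302), with a longest tract of 15 bp. Ncan, which encodes the brain proteoglycan neurocan, had a TKO score of 3191 in intron 9 (chr8:70102704-70103196), where another transcript starts within 3000 bp. Gm45602, an uncharacterised gene model, had 3140 in intron 1. The peak in Adat1 held only a short tract, and the other pair held the tracts printed here.
Ncan intron 9, chr8:70102913-70102957: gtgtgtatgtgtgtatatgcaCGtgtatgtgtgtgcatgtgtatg
Gm45602 intron 1, chr8:79496352-79496386: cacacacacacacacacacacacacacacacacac

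The ranks 6 and 8 fell in Gm20388, a gene model of 4434882 bp with 207 other genes inside it, at places where no other protein-coding gene lay. The remaining 4 of the 10 strongest TKO peaks were between genes. Short tracts were more frequent among strong TKO peaks than among weaker ones on chromosome 8 as on the other autosomes. In the strongest 10% of the TKO list, 11 of 105 peaks of chromosome 8 had no tract of 12 bp, or 10.5%, against 7.27% of 1361 elsewhere. In the rest of that list it was 15 of 883, or 1.70%, against 3.20%.

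The SssI list was led on chromosome 8 by Rnf150, which encodes a protein with a RING finger, with a score of 2344 in intron 1 (chr8:82932327-82932881) and a TKO score of 1422. Pcnx2 had 2290 in intron 4 and 1077 in the TKO list. Pard3, a cell polarity gene, had 2248 in intron 1 and 2162 in the TKO list. These 3 peaks were of nearly the same SssI score, and their TKO scores ran from 1077 to 2162.

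Of the 10 strongest SssI peaks of chromosome 8, 9 had a TKO peak and 1 did not. The exception lay in intron 1 of Rab4a, which encodes a small GTPase of endosomes, at chr8:123810917-123811536, with an SssI score of 2290, 24 CpGs in the peak and the tract of 160 bp printed above. The next strongest without a TKO peak, at rank 19 of chromosome 8 with a score of 2136, lay among the defensin genes. It was at chr8:19449869-19450610, upstream of Defb8, with its midpoint in the 3000 bp before a transcript start. Then came an exon of Sox1ot, a long non-coding gene that overlaps Sox1, with a score of 1909, rank 61, and 47 CpGs in 457 bp. All 3 peaks had CpGs in their longest tract. So did some of the 9 shared peaks, among them that of Pard3 with 2, while others such as those of Rnf150 and Pcnx2 had none. CpGs in the longest tract therefore did not set the 3 peaks apart from the shared ones. Without regard to score, 33.5% of the SssI peaks of chromosome 8 with 6 or more CpGs were shared, against 3.48% of those without a CpG.
Peak among the defensin genes, chr8:19450445-19450512: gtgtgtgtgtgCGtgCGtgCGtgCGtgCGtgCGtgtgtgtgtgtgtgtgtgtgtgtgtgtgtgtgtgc
Sox1ot exon 1, chr8:12385844-12385858: gtgtgCGtgCGCGtg

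The strongest TKO peak of the lowest bin, at 15 to 20 Mb, shows that this bin held strong sites as well. It lay between genes at chr8:15389068-15389581, with a TKO score of 2078, an SssI score of 2014 and a tract of 113 bp with 6 CpGs. In the highest bin, at 0 to 5 Mb, the strongest TKO peak had a score of 1585 and a tract of 22 bp without a CpG. The strongest ones at 60 to 65 Mb (2365) and 95 to 100 Mb (2180) were also between genes, and those at 75 to 80 Mb and 30 to 35 Mb were the Gm45602 peak and a peak between genes with a score of 2792.
Lowest bin, chr8:15389211-15389323: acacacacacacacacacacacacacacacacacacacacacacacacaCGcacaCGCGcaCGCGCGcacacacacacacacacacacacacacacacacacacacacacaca
Highest bin, chr8:3694423-3694444: tgtgtgtgtgtgtgtgtgtgtg

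Peaks were then counted in genes by their midpoint. Of 1038 protein-coding genes on chromosome 8, 641 or 61.8% held an SssI peak and 222 or 21.4% a TKO peak. Apart from Gm20388, with 422 SssI and 79 TKO peaks over its span, the most SssI peaks were in Cdh13 (169), Wwox (139), Csmd1 (123), Zfhx3 (122) and Nrg1 (90). A longer gene has more sequence in which a peak can lie, and per Mb these 5 genes held between 74.9 (Csmd1) and 162 (Cdh13) SssI peaks.

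The cadherins, which join neighbouring cells, had SssI peaks in 8 of 8 genes and TKO peaks in 4, with 218 SssI peaks of which 28 were shared and 26.966 expected at equal score. Cdh13, the cadherin anchored to the membrane by a lipid, held 24 of the 28 TKO peaks, the highest scoring 840. Cdh1, the cadherin of epithelia, had 1 TKO peak with a score of 751, Cdh15 had 1 with 509 and Cdh8 had 2, of 182 at most. Cdh3, Cdh5, Cdh11 and Cdh16 had SssI peaks only, with scores up to 637.

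The list of long genes was a choice of 15 names with no length cut-off, from Gpm6a (106029 bp) to Csmd1 (1643050 bp). It left out other long genes such as Nrg1 (1069479 bp), so its values are not those of long genes in general. The 15 listed genes all had SssI peaks, and 14 had TKO peaks. Of their 911 SssI peaks, 72 were shared and 79.103 expected at equal score. The ratio was 0.910 (0.712 to 1.15), and its interval includes the 1.09 of the whole chromosome. Cdh13 and Cdh8 were in the cadherin list too, and Zfhx3 and Nr3c2 in the transcription factor list below. The values of these lists therefore rest in part on the same peaks. Csmd1, which encodes a large complement-control membrane protein of the brain, had 7 TKO peaks with 9.962 expected. Wwox, an oxidoreductase gene at a fragile site, had 5 with 7.7899 expected, and Sgcz, a sarcoglycan gene, had 1 with 3.578 expected. Inpp4b, a phosphoinositide phosphatase gene, had 6 with 5.0172 expected. Tenm3, which encodes a teneurin of neuronal wiring, had 7 with 7.1545 expected and a TKO score of 2633, the highest of the list. Tusc3 had 6 SssI peaks and no TKO peak.

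The transcription factor genes, most of them short, had SssI peaks in 20 of 34 and TKO peaks in 7. Of their 222 SssI peaks, 17 were shared and 18.054 expected at equal score, a ratio of 0.942 (0.549 to 1.51). Zfhx3 held 9 of their 17 TKO peaks. Nr3c2, the mineralocorticoid receptor, had 2, and Nfix, a nuclear factor I gene, had 2. Irf2, Smad1, E2f4 and Irf8 had 1 each, with TKO scores of 46, 70, 63 and 60. The single SssI peak of Irf8, a factor of myeloid cells, had a score of 1178. Sox1, Hand2, Klf2, Klf1, Jund, Junb, Lyl1, Irx3, Foxf1, Foxc2 and Foxl1 were among the 14 genes with no peak of either list.

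In the carboxylesterase and defensin clusters of chromosome 8 the counts of shared peaks were small and within counting error of those expected at equal score. The carboxylesterases, which hydrolyse esters in liver and plasma, had SssI peaks in 15 of 20 genes, 31 peaks in all, of which 1 was shared and 3.2976 were expected, a difference within counting error (ratio 0.303, 0.00768 to 1.69). That one was in Ces1e, with a TKO score of 325, whereas peaks of Ces1g, Ces1a and Ces4a with SssI scores of 1061, 1041 and 1008 had none. Defensins are antimicrobial peptides of epithelia, and their list also held pseudogenes such as Defa-ps12. Of its 63 defensin entries, many of them short, 19 had SssI peaks, and Defb2 had a TKO peak with a score of 153. With Def8, which the name also matched but which is not a defensin, the list had 22 SssI peaks, of which 1 was shared and 1.5777 were expected (ratio 0.634, 0.0160 to 3.53). Peaks of Defb7 and Defb9 with SssI scores of 1234 and 1087 had no TKO peak. Many of these genes are near-identical copies, so a read may fit several of them and their peaks are uncertain. The metallothioneins, small metal-binding proteins, had no peak of either list in any of the 4 genes.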

How the data were processed

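Recombinant MBP-ZBTB43 or MBP alone was used to capture sonicated DNA, and 8 libraries of 4 conditions were used, grouped by their labels. Another 4 libraries, from sperm DNA, were not analysed here. The authors aligned reads to mm10 with bwa mem 0.7.17, pooled both libraries of a condition, and ran MACS2 2.2.7.1 with its default settings against MBP. Each deposited peak carries a score, 10 times the −log10 q-value, as the authors' peak caller writes it. They hold no read counts, so the depth behind each peak cannot be computed from them, although the methods state a minimum depth for all affinity-seq libraries alike, and no test between conditions was made.

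SssI peaks were ranked by score (ties by width) and divided into 10 classes. The expected number of shared peaks was the sum of the shares of their class on the other 18 autosomes, with each other chromosome treated in the same way. Bins of 5 Mb needed 20 SssI peaks. Intervals are exact Poisson for ratios and Wilson for shares. Tracts of alternating purines and pyrimidines were measured on GRCm38 from 12 bp, leaving out those made of A and T only. GENCODE M21 gave the gene over each peak midpoint, and where genes overlapped the shortest protein-coding one was named, with the exon or intron of the transcript of most exons. Sequences are from the RefSeq copy of GRCm38. Overlaps were checked with bedtools 2.31.1, and the code for the ratio was tested on simulated data. The tools were scipy 1.17.1, pandas 2.3.3, numpy 2.4.6, pysam 0.24.0 and matplotlib 3.10.9, run in Python 3.11.15.

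The members and gene lists were chosen with earlier results of these data known. The genes named were those over the 10 strongest peaks of each list on chromosome 8, the 5 with the most SssI peaks, those over the strongest TKO peak of the 3 highest and the 3 lowest bins, and 6 gene lists. The strongest SssI peaks without a TKO peak and the TKO peaks without an SssI peak were named after their values were seen. Alternatives covered the number of score classes, thresholds of either list, the overlap that counts as shared, merging, width, CpG, GC and tract classes, the strongest peaks, chromosome ends, each bin and the bin size. Some of the strongest SssI peaks are not reported here.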

Additional observations from a re-analysis of the deposited data

How the results depend on the processing

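The ratio of chromosome 8 stayed above 1 under each of the alternatives tried, 17 values in all. It moved outside its interval only when the strongest of the 10 score classes was left out (1.28). Its interval reached below 1 with a TKO score of 200 or more (1.06, 0.969 to 1.16), with 5 classes of width added to those of score (1.06, 0.999 to 1.13) and in the strongest class alone (1.05). The rank among autosomes fell from 1 to 2 with a TKO score of 100 or more, where chromosome 18 led with 1.10, and to 5 with a TKO score of 200 or more, where it led with 1.202. It was 4 when 50% of the SssI peak had to be covered (chromosome 19 first, 1.11), 3 in the strongest class alone (chromosome 10 first, 1.07) and 2 in the other 9 classes (chromosome 19 first, 1.31). The cause of these changes was not tested. Between 13 of 24 bins (strongest class alone) and 20 of 26 were above 1 at 5 Mb, as were 15 of 26 with a TKO score of 200 or more, 42 of 64 bins of 2 Mb and 10 of 13 of 10 Mb. Adding 5 classes of GC content (1.09) or tract classes (1.09), chosen after seeing the data, left the rank at 1.

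The share of SssI peaks with a TKO peak moved as the thresholds were moved: 11.0% with both lists at a score of 50 or more, 7.16% and 4.84% with TKO scores of 100 or more and 200 or more, 8.07% with 50% covered, 72.4% in the strongest class, 2.08% in the other 9, and 9.33% without the first and last 10 Mb. The TKO score difference was 0.10, 0.05 and 0.08 with 20, 50 and 100 score classes. It moved outside its interval only in the strongest hundredth (0.21). No paired analysis was possible because the duplicates of each DNA were pooled into 1 list. With no replicate list and no read counts, the lists give neither the spread between libraries nor the reads at a missing TKO peak.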

Other observations

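The ratio of the 19 autosomes was set beside 3 features of their sequence. Spearman's rank correlation of the ratio with GC content was 0.01, with CpGs per Mb 0.32 and with tracts of 24 bp or more per Mb 0.35 (Pearson's r 0.05, 0.32 and 0.45). These are descriptions over 19 chromosomes that share 1 pair of lists, in which chromosome 8 ranks 7 by GC content, 5 by CpGs and 2 by long tracts. Pcnx2 had the most TKO peaks of chromosome 8 after Gm20388 and Cdh13, 12 in 146810 bp, with 35 SssI peaks and 9.7717 shared expected at equal score. It was named after its values were seen.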
